A study of Homo sapiens with 2 samples.

Results

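The miR-26 family is a small group of microRNAs (miRNAs), short RNAs that lower the output of messenger RNAs carrying a match to their seed, bases 2 to 8. Of the 1450 mature miRNAs listed, 3 were chosen by name: hsa-miR-26a-5p, hsa-miR-26b-5p and hsa-miR-26b-3p (the prefix hsa, for human, is left out from here on). All 3 were listed and passed the filter of a mean normalized count of at least 1. The remaining strands of the family, miR-26a-1-3p and miR-26a-2-3p, were listed too and are given beside them. The cells were Jurkat, an immortalized human T-lymphocyte line, infected with a lentivirus that overexpressed the long non-coding RNA PELATON or with a control lentivirus, and selected with puromycin. The sample labels name the RNA lnc-CEBPB-13 and do not mention PELATON. It is taken here to be PELATON because the paper cites these data as its own. The labels give 1 sample labelled overexpression and 1 labelled control. The deposited table gave a mean for each group, from which the reads of 2 libraries in each group were recovered. They are called A and B, and these letters carry no pairing. PELATON itself was not among the listed miRNAs, so the labels could not be checked against it.

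The direction of every difference rests on the sample labels and is uncertain. Overexpression and control here mean the libraries so labelled. The study's text and its supplementary list describe miR-10b-5p, miR-1291 and miR-6775-3p as lowered by PELATON. By qPCR in blood mononuclear cells that overexpressed PELATON, the paper reports miR-10b-5p as lower. It found no significant change of miR-1291 or miR-6775-3p there, and reports more miR-10b-5p after PELATON knockdown. In the deposited table all 3 were higher under the overexpression label, with means of 96.6 against 9.28 normalized counts for miR-10b-5p, 273 against 119 for miR-1291 and 12.5 against 0.82 for miR-6775-3p. Which direction is right cannot be told from these files. If the labels were exchanged, each "fell" or "lower" below would become "rose" or "higher" at the same size and p, and the other way round.

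The family is encoded in introns of the CTDSP genes, which encode small phosphatases of the RNA polymerase II tail that also act on the retinoblastoma protein. miR-26 is known to target EZH2, the methyltransferase of the Polycomb complex, and cyclins of the G1 phase, and the transcription factor MYC is known to repress it. Each hairpin is cut into a 5p and a 3p strand, of which usually 1 is kept in the silencing complex.

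The mature sequences show what the counts can and cannot separate, and they are given with the seed in capitals (RefSeq, GRCh38.p14, written 5′ to 3′).
miR-26a-5p: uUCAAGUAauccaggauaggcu
miR-26b-5p: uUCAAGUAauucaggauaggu
miR-26b-3p: cCUGUUCUccauuacuuggcu
miR-26a-1-3p: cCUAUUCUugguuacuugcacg
miR-26a-2-3p: cCUAUUCUugauuacuuguuuc

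The 5p strands of miR-26a and miR-26b shared the seed UCAAGUA and their first 10 bases. Counted from 1 at the 5′ end of miR-26a-5p, they differed by C11U and C21U, and miR-26a-5p was 1 base longer. No other listed miRNA with a known sequence (1285 of 1450) carried this seed. The known relatives miR-1297 and miR-4465, which have it, were not among the listed miRNAs. The 3p strands split differently: both miR-26a 3p strands had the seed CUAUUCU, whereas miR-26b-3p had CUGUUCU, which no other matched miRNA carried. A read of a 5p strand therefore tells miR-26a from miR-26b by the base at position 11 and by its end, and how the counting treated reads with a mismatch was not given in the sources used here.

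The hairpins show where the strands sit, with the mature 5p and then 3p strand in capitals (RefSeq, GRCh38.p14).
MIR26B: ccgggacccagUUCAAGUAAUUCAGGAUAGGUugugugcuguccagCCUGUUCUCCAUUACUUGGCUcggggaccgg
MIR26A1: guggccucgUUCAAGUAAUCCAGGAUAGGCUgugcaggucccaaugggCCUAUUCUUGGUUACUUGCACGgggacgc
MIR26A2: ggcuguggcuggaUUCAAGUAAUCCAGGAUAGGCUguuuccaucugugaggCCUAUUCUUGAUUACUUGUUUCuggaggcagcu

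In GENCODE on GRCh38, MIR26B lies at chr2:218402646-218402722 on the plus strand, in intron 4 of 6 of CTDSP1. MIR26A1 lies at chr3:37969404-37969480 on the plus strand, in intron 5 of 7 of CTDSPL. MIR26A2 lies at chr12:57824609-57824692 on the minus strand, in intron 5 of 7 of CTDSP2. Intron numbers are those of the principal transcript, each hairpin lies on its host's strand, and no annotated transcript spanning a hairpin had an exon over it. The mature miR-26a-5p is the same from both loci, so its count sums MIR26A1 and MIR26A2, and only the 3p strands tell these loci apart. The messenger RNAs of the 3 host genes were not measured in this table.

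The libraries held 2052494 and 1177485 reads with overexpression, and 2615868 and 2663279 reads in control. The T-cell miRNA miR-181a-5p was abundant in both groups, averaging 237970 normalized counts in overexpression libraries and 253427 in control libraries. It is 1 of 7 listed leukocyte markers, which did not all stay level. By limma, a linear model across all miRNAs, miR-142-5p fell and miR-146a-5p rose. Among all miRNAs tested, 3.05% fell and 1.88% rose. The libraries labelled overexpression also carried miRNAs of muscle. Of 5 listed heart and skeletal muscle markers, 4 rose by limma, against 1.88% of all miRNAs tested. The summed normalized count of the 5 was 4078 to 4891 with overexpression, against 33.1 to 56.0 in control, where miR-133b and miR-206 were at 0. The marker that did not pass was miR-499a-5p, with 30.9 and 21.7 against 27.2 and 26.3. Summed smooth muscle and fibroblast markers stood at 314 to 389 against 36.0 to 57.7, and red blood cell markers at 769 to 1126 against 121 to 158. Most of the red blood cell sum with overexpression was miR-486-5p, at 631 and 906 against 65.6 and 55.2 in control. It alone of these markers passed limma, while miR-451a and miR-144-3p did not (adjusted p 0.0924 and 0.527). The part of these miRNAs in the values that follow was not tested. Fewer cells of a type and less RNA per cell cannot be told apart in such bulk libraries.

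By the labels, miR-26b-5p fell to 48.4% of its control level and was the only member of the 3 to pass the test. With the labels exchanged it would be 2.07-fold higher instead. miR-26a-5p, the far more abundant strand, stood at 76.7% of control and did not pass. miR-26b-3p stood at 49.7% of control, on far fewer reads, and did not pass either. In each of the 3 members both overexpression libraries lay below both control libraries. Among all 1115 miRNAs tested, 23.8% had the same order of libraries, so this order alone is common in these data.

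miR-26b-5p, the guide strand of MIR26B, had 2598 and 2823 normalized counts in the overexpression libraries, against 5427 and 5778 in the control libraries. These rested on 2860 and 1822 reads with overexpression and on 6780 and 6810 in control. The libraries of a group lay close together and the groups were far apart. The deposited means were 2710 for overexpression and 5603 for control, and the log2 of their ratio was −1.05. By limma the log2 difference was −1.05 with an SE of 0.16 and an adjusted p of 0.0103 (Benjamini-Hochberg over all miRNAs tested, n = 2 libraries each). In the same fit, 34 miRNAs (3.05%) fell and 21 (1.88%) rose. It was also 1 of 164 miRNAs (14.7%) that were at least 2-fold lower, a rule of size without a test, while 174 (15.6%) were at least 2-fold higher. It passed limma under each of the 7 other scalings, pseudocounts and filters tried, with adjusted p between 0.00287 and 0.0457, but not with any 1 library left out (0.114 to 0.286).

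miR-26a-5p, the shared guide strand of MIR26A1 and MIR26A2, had 18543 and 16264 normalized counts with overexpression, against 21701 and 23707 in control. Its reads numbered 20416 and 10498 with overexpression, and 27109 and 27941 in control. The groups did not overlap, but the gap between the nearest libraries was of the same order as that between the libraries of a group. The deposited means were 17404 for overexpression and 22704 for control, and the log2 of their ratio was −0.38. The log2 difference by limma was −0.39 (SE 0.16, 95% interval −0.75 to −0.02), with an adjusted p of 0.243. The interval is not corrected for the number of miRNAs, and 207 of 1115 had an unadjusted p under 0.05 as miR-26a-5p did (0.0409).

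miR-26b-3p, the passenger strand of MIR26B, had 49.96 and 34.1 normalized counts with overexpression, against 81.7 and 87.4 in control. It was counted on 55 and 22 reads with overexpression and on 102 and 103 in control. The control libraries were nearly equal, and the overexpression libraries differed more from each other than the control libraries did. The log2 ratio of the means was −0.99, just short of the 2-fold line. By limma the log2 difference was −1.02 (SE 0.35, 95% interval −1.82 to −0.21), with an adjusted p of 0.171. The size of its difference was thus near that of miR-26b-5p, with a larger SE.

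**Figure D1:**
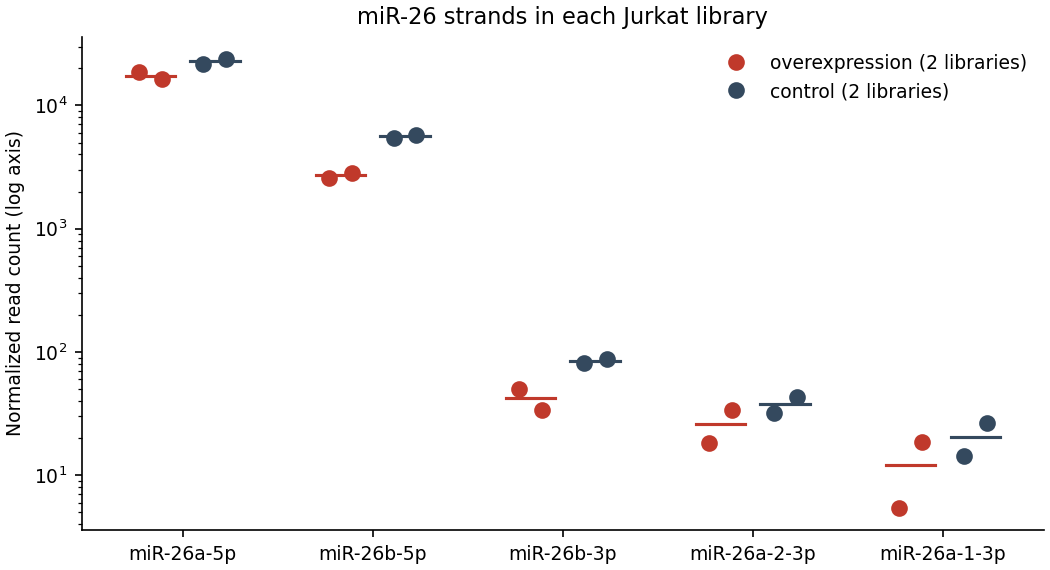
Normalized read count (log axis) of the 5 miR-26 strands in each recovered library, with overexpression left of control; points are libraries and bars the group means. For miR-26a-5p, miR-26b-5p and miR-26b-3p both overexpression points lie below both control points, while the groups overlap for the miR-26a 3p strands.

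The passenger strands of miR-26a were scarce. miR-26a-2-3p, from MIR26A2, had 18.2 and 34.1 normalized counts with overexpression, against 32.0 and 43.3 in control. miR-26a-1-3p, from MIR26A1, had 5.45 and 18.6 with overexpression, against 14.4 and 26.3 in control. In both, the groups overlapped. The limma log2 difference was −0.56 (SE 0.48) for miR-26a-2-3p and −0.87 (SE 0.71) for miR-26a-1-3p, with adjusted p of 0.633 and 0.620. Their intervals, −1.65 to 0.53 and −2.50 to 0.76, hold both no difference and a difference larger than that of miR-26b-5p. They were counted on 6 to 51 reads a library, and no change of either miR-26a locus on its own passed the test.

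**Figure D2:**
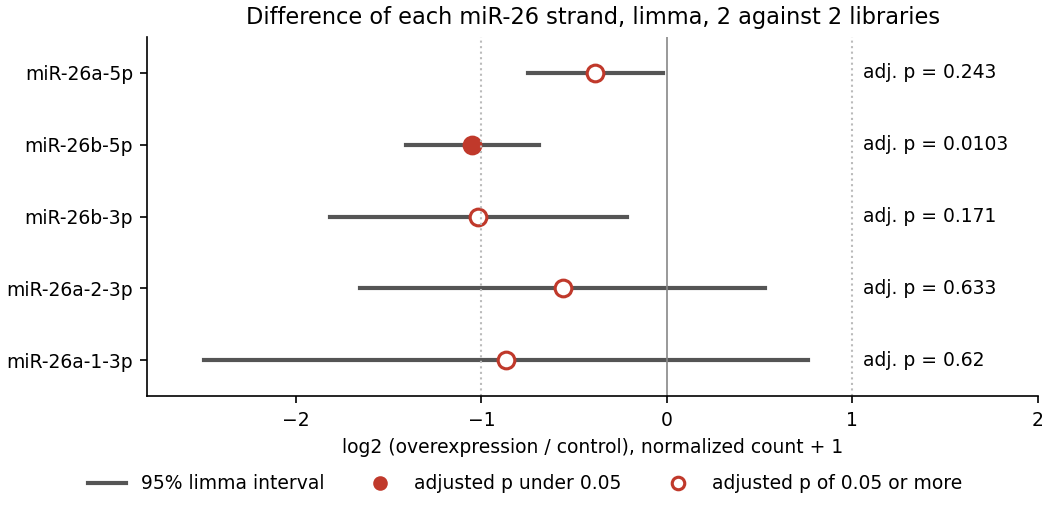
Difference of each miR-26 strand in log2 (overexpression over control) with its 95% limma interval; the filled point passed an adjusted p of 0.05, open points did not, and dotted lines mark a 2-fold difference. miR-26b-5p is the only filled point, at −1.05, and the intervals widen as the reads get fewer.

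Since the 5p strands share a seed, their balance was compared within each library, where the scaling between libraries plays no part. miR-26a-5p outnumbered miR-26b-5p by 7.14-fold and 5.76-fold in the overexpression libraries, against 3.998-fold and 4.103-fold in the control libraries. On the log2 scale this ratio averaged 2.68 ± 0.22 with overexpression and 2.02 ± 0.03 in control (SD, n = 2 each), a difference of 0.66. The groups did not overlap. The exact permutation test gave p = 0.333 (two-sided), the smallest that 2 against 2 libraries can give, so this design cannot pass 0.05 for a single ratio. As a share, miR-26b-5p made up 12.3% (exact 95% interval 11.9 to 12.7) and 14.8% (14.2 to 15.4) of the reads of both 5p strands with overexpression. In control it made up 20.0% (19.6 to 20.4) and 19.6% (19.2 to 20.0). Such intervals cover counting error only. The overexpression libraries differed from each other by more than counting error, the control libraries did not, and both overexpression shares lay below both control shares. These are ratios of reads and not of molecules, since strands can differ in how well they enter a library.

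For scale, 106 pairs of listed miRNAs shared a seed with both at a mean of at least 100, over 30 seeds, and many of these pairs share a member. The median absolute change of their log2 ratio was 0.25. A change larger than that of the miR-26 pair was seen in 11 pairs and a smaller one in 94. Some pairs had equal counts in every library, such as miR-199a-3p and miR-199b-3p, so that their change was 0 by construction. Such pairs lower the median and add to the smaller changes, and the let-7 seed alone gave many of the pairs.

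Added together, the miRNAs with the seed UCAAGUA had 21141 and 19087 normalized counts with overexpression, against 27128 and 29486 in control. The groups did not overlap (exact permutation test, two-sided, p = 0.333, the smallest possible). The mean was lower by 8193 normalized counts with overexpression. In the reported scaling, miR-26a-5p made up 5300 of these and miR-26b-5p made up 2893, or 35.3% of the difference. This split depends on the scaling, and the miR-26a-5p difference did not pass limma (adjusted p 0.243). By percent of all reads, miR-26b-5p took 0.139 and 0.155 with overexpression, against 0.259 and 0.256 in control. miR-26a-5p took 0.995 and 0.892, against 1.036 and 1.049, a slightly smaller drop of the mean. As a share of all reads, both strands together took 1.13% and 1.05% with overexpression and 1.30% in each control library.

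The strands of a hairpin were compared in the same way. For MIR26B the 5p strand outnumbered the 3p strand by 52.0-fold and 82.8-fold with overexpression, against 66.5-fold and 66.1-fold in control. The overexpression libraries lay on either side of the control libraries, so the balance of the strands differed by less than the spread between the overexpression libraries. The log2 ratio of 5p over 3p averaged 6.002 ± 0.47 with overexpression and 6.03 ± 0.005 in control (SD, n = 2 each), a difference of −0.03 (exact permutation test, two-sided, p = 1). Without overexpression library A the difference was 0.30, and without overexpression library B it was −0.36. The 3p strand took 1.89% (exact 95% interval 1.42 to 2.45) and 1.19% (0.749 to 1.801) of miR-26b reads with overexpression, and 1.48% (1.21 to 1.796) and 1.49% (1.22 to 1.804) in control.

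Among 149 hairpins with both strands at a mean of at least 10, the median absolute change of this balance was 0.63 on the log2 scale, and 1 hairpin changed less than miR-26b. The near-zero mean change of miR-26b averages overexpression libraries that deviated in opposite directions. Its 5p strand prevailed more than in most hairpins: 69 of the 149 had more 5p than 3p reads on average, and 11 had a larger excess than miR-26b.

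**Figure D3:**
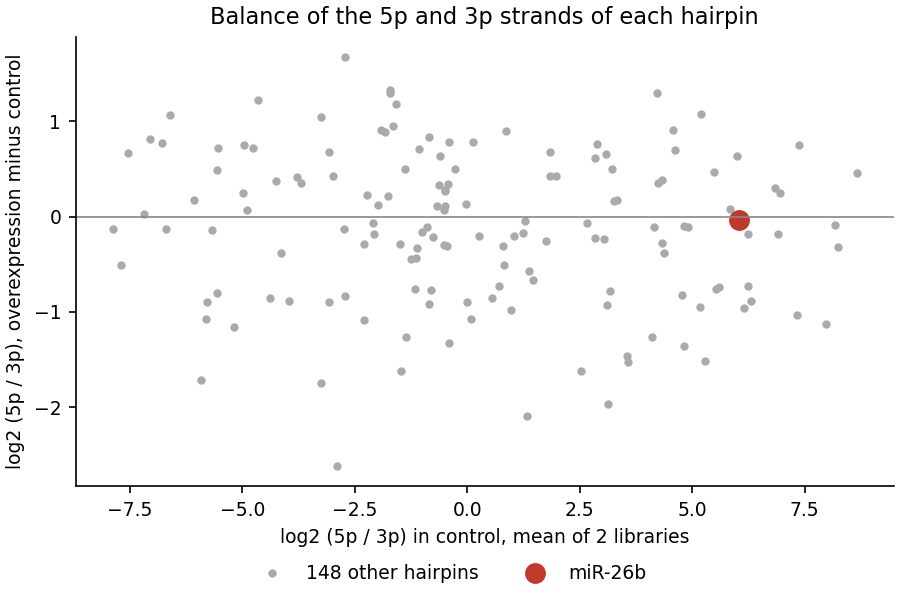
Change of the log2 ratio of 5p over 3p strand (overexpression minus control) against that ratio in control, for 149 hairpins with both strands at a mean of at least 10. miR-26b (large point) lies far to the right, at 6.03, and close to no change, at −0.03.

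For miR-26a, whose 5p strand comes from both loci, the 3p strands were summed. The 5p strand outnumbered them by 785-fold and 309-fold with overexpression, against 467-fold and 341-fold in control, and the groups overlapped (exact permutation test, two-sided, p = 1). The 3p strands took 0.127% and 0.323% of miR-26a reads with overexpression and 0.213% and 0.293% in control. All these shares were below every share of miR-26b-3p in miR-26b. Within the miR-26a 3p reads, the strand of MIR26A1 was the minor one in each library, with 23.1% (8.97 to 43.6) and 35.3% (19.7 to 53.5) with overexpression and 31.0% (19.5 to 44.5) and 37.8% (27.3 to 49.2) in control. These intervals overlap in all 4 libraries.

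**Figure D4:**
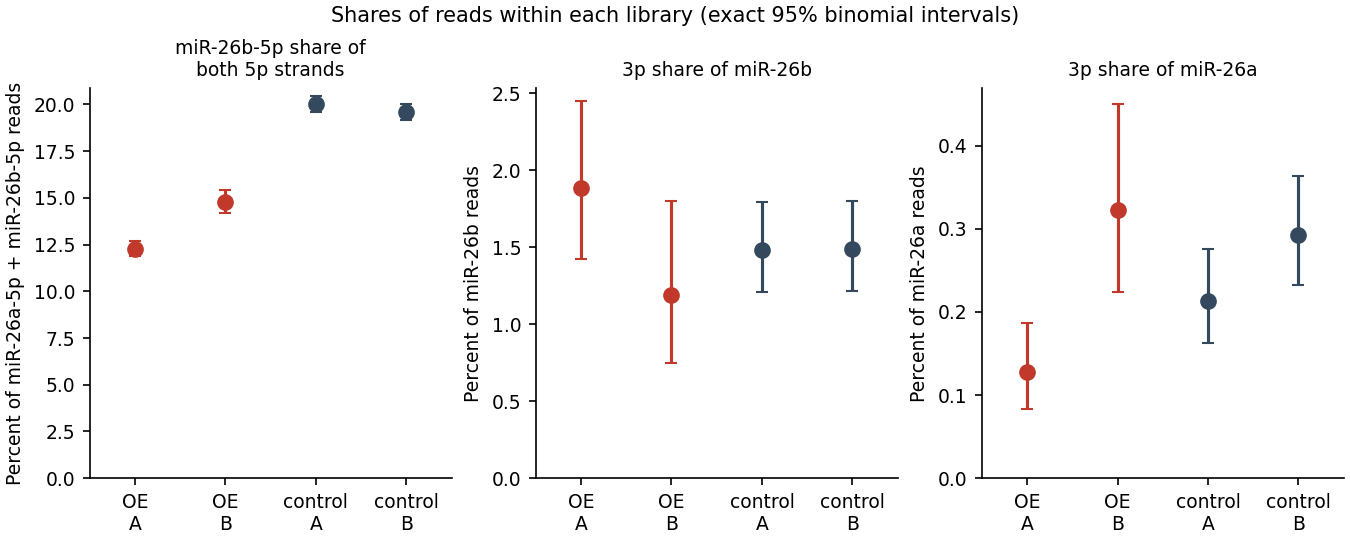
Shares of reads within each library, with overexpression (OE) left of control and exact 95% binomial intervals: miR-26b-5p among both 5p strands, the 3p strand of miR-26b, and the 3p strands of miR-26a. The miR-26b-5p share is 12.3% and 14.8% with overexpression and 20.0% and 19.6% in control, while both 3p shares overlap between the groups.

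In the order of mean levels, miR-26a-5p was number 18 with overexpression and number 19 in control. Its neighbours were let-7i-5p above and miR-148a-3p below with overexpression, and miR-363-3p above and miR-148a-3p below in control, and each overlapped with it across libraries. miR-26b-5p was number 91 with overexpression and number 59 in control. With overexpression it did not separate from miR-22-3p above or miR-502-3p below. In control it lay below miR-29c-3p without overlap and overlapped with miR-20b-5p just below it. miR-26b-3p was number 387 with overexpression and number 303 in control.

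The miRNAs with the pattern most like that of each 5p strand were found by the distance of centred log2 levels over the 4 libraries, among 361 others with a mean of at least 50. For miR-26a-5p these were miR-340-5p (distance 0.07), miR-455-3p, miR-1304-3p, miR-148a-3p and miR-152-3p (0.10). None of these passed limma, with log2 ratios from −0.33 to −0.39. For miR-26b-5p they were miR-32-5p (0.11), miR-9-3p, miR-29c-3p, miR-98-5p and miR-15b-3p (0.22). All 5 of these fell by limma, with adjusted p from 0.00428 to 0.0309, whereas 3.05% of all miRNAs tested fell. They were chosen for likeness to a miRNA that fell, so this count is no separate result. miR-98-5p, a let-7 family member, had 2968 and 2925 normalized counts with overexpression, against 6733 and 7266 in control. miR-32-5p had 135 and 136 with overexpression, against 284 and 311 in control. With 4 libraries in 2 groups, likeness of this kind mostly restates the size of the difference.

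Besides miR-26, MYC is known to repress a series of miRNAs, of which 15 were listed and tested. By the labels, 8 of these fell and 1 rose by limma (the reverse if the labels were exchanged), against 3.05% and 1.88% of all miRNAs tested. That share depends on level: with a mean of at least 10 required, 49 of 588 miRNAs fell and 30 rose. The median log2 ratio of the 15 was −0.90, beside 0.06 for all miRNAs tested. The members that fell were let-7a-5p, let-7d-5p, let-7f-5p and let-7g-5p, which restrain growth-promoting genes, miR-16-5p, which targets cyclins and BCL2, and miR-29a-3p, miR-29b-3p and miR-29c-3p, known for targeting collagens and DNA methyltransferases. These let-7 members share a seed, as do the miR-29 members, so the 8 belong to fewer families and are not taken as independent results. let-7a-5p had 10472 and 9162 normalized counts with overexpression, against 27428 and 31880 in control, a limma log2 difference of −1.59 (SE 0.16, adjusted p 0.0018). miR-146a-5p, a restraint on NF-κB signalling, rose, with 2974 and 2954 against 1739 and 1415 (adjusted p 0.025). miR-26b-5p lay within the range of the members that fell, and miR-26a-5p showed a smaller difference than each of them. With the reads scaled to the library totals, 4 of the 15 fell instead of 8, with a median of −0.66, while miR-26b-5p still passed. Under this scaling 8 of all 1094 miRNAs tested fell, and the median of all was 0.28. Falls were not confined to this list. Outside it, miR-17-5p, miR-20b-5p and miR-106a-5p, which share the seed AAAGUGC, also fell by limma in the reported scaling. Of the same seed, miR-20a-5p, miR-93-5p and miR-106b-5p were lower but did not pass. MYC was not measured in this table, so its part in these differences was not tested.

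**Figure D5:**
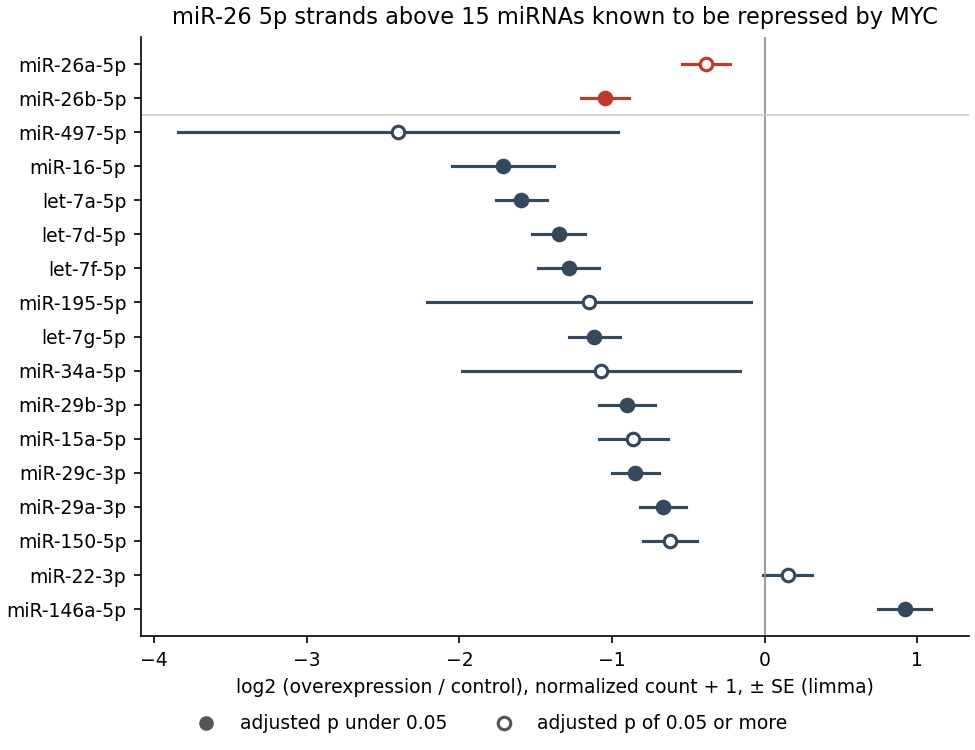
limma log2 difference (overexpression over control) ± SE of miR-26a-5p and miR-26b-5p, above 15 other miRNAs known to be repressed by MYC; filled points passed an adjusted p of 0.05. In this list 8 filled points lie below 0 and 1, miR-146a-5p, lies above it.

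Of 4 other miRNAs known to target EZH2, none fell and 1 rose by limma, and none was lower at an unadjusted p under 0.05. Among all miRNAs tested 3.05% fell and 1.88% rose, so none of 4 falling sets these miRNAs apart from no others. miR-101-3p, the most abundant of them, had 4055 and 3120 normalized counts with overexpression, against 3348 and 4905 in control, and the groups overlapped (adjusted p 0.738). miR-138-5p overlapped too. miR-124-3p, a neuronal miRNA, rose, with 35.4 and 52.7 normalized counts with overexpression, against 0 and 0.85 in control (adjusted p 0.0108). miR-214-3p had 2.72 and 9.30 with overexpression, against 0 and 0.85 in control (adjusted p 0.306).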

How the data were processed

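Small RNA libraries of Jurkat cells were made with a small RNA kit by the methods, whereas the labels describe an mRNA kit. The deposited signal values are group means of read counts per mature miRNA, which the authors divided by DESeq size factors (build GRCh38.p14 by the submitters' processing notes). The aligner, trimming and miRNA annotation are not given in the sources used here. Further columns hold the authors' ratio of control over overexpression, its log2 and p-values, and were not used. The study's supplementary list gives the same log2 ratios, control over overexpression by the file header, as changes with PELATON overexpression. Groups were taken from the sample labels, so the direction of every difference is uncertain. The 3 miRNAs given for that question were chosen after their values were seen.

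Each group mean was a whole-number combination of 2 steps, 1 for each library. All 1450 values of each group had a single solution, and size factors recomputed from 788 miRNAs equalled the recovered ones (1.10 and 0.645 with overexpression, 1.25 and 1.18 in control). Totals ranged between 1177485 and 2663279 reads. Whether the libraries came from separate cultures is not stated, so p-values measure only the spread between these libraries.

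limma 3.58.1 (R 4.3.3) with a trended prior variance was fitted to log2(normalized count + 1) of the 1115 miRNAs whose mean reached 1, and p-values were adjusted by Benjamini-Hochberg with a threshold of 0.05. Fold changes on this scale understate those of low miRNAs. Ratios of group means used the same pseudocount. The recovery and the fit were tested on simulated data. Within-library ratios were compared by exact permutation tests (scipy 1.17.1), and shares have exact Clopper-Pearson intervals. Other scalings, pseudocounts of 0.5 and 5, filters, fold thresholds and leaving out each library were tried.

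The members, lists, tests and rules for naming miRNAs were chosen with earlier results of these data known. Named were the members, their other strands, seed relatives, the MYC and EZH2 lists, the 5 miRNAs nearest in pattern, the neighbours in level, and cell type markers. Smooth muscle, red blood cell, epithelial and liver markers were checked as well as those of muscle and leukocytes. Of 7 leukocyte markers, 1 fell and 1 rose by limma. Of 4 epithelial markers none passed, with sums of 63.5 to 66.3 with overexpression and 52.6 to 58.4 in control, and the liver marker miR-122-5p had 52.7 and 183 with overexpression and 32.0 and 28.0 in control. Of the smooth muscle and fibroblast markers 2 of 4 rose, and of the red blood cell markers 1 of 3 rose.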

Additional observations from a re-analysis of the deposited data

How the results depend on the processing

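No miR-26 member changed direction under any scaling, pseudocount or left-out library tried. The log2 ratio of miR-26b-5p was −0.81 with scaling to total reads, −0.82 with scaling that leaves out the 10 most abundant miRNAs and −1.21 with upper-quartile scaling, so its 2-fold difference depends on the scaling while its limma call does not. These scalings shifted the median of all miRNAs by 0.22, 0.21 and −0.15. Relative to that median miR-26b-5p stood at −1.11 in the reported scaling and at −1.09, −1.09 and −1.12 in the others, and miR-26a-5p at −0.45, −0.43, −0.43 and −0.45. With each library left out in turn, the log2 ratio of miR-26b-5p ranged from −1.11 to −0.99 and lost its call each time. These fits assume that the lone library varies like those of the other group. The number called by limma was 55, against 24 with scaling to total reads (16 higher, 8 lower) and 24 without the 10 most abundant, and it ranged from 0 to 70 with a library left out. At least 2-fold apart were 338 miRNAs (51.5% of them higher), against 121 with a pseudocount of 5, 104 at a mean of at least 10, 578 past 1.5-fold and 70 past 4-fold. The share higher was 68.1% with scaling to total reads and 67.5% without the 10 most abundant. The change of miR-26a-5p over miR-26b-5p ranged from 0.51 to 0.82 with a library left out. That of miR-26b-5p over miR-26b-3p ranged from −0.36 to 0.30, changing sign without overexpression library A (0.30). No paired analysis was possible because the recovered libraries carry no replicate number. All directions rest on the sample labels.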
